A study of Caenorhabditis elegans with 9 samples.

Results

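Innexins are the proteins from which invertebrates build gap junctions, the channels that join the cytoplasm of neighbouring cells. A channel forms where a hemichannel in one cell docks onto a hemichannel in the next, and ions and small molecules then pass directly between the cells. In Caenorhabditis elegans such channels carry electrical synapses between neurons, couple the muscles of the body and pharynx, and join germ cells and oocytes to the somatic sheath that surrounds them. The 10 innexin genes described here were chosen by name, with no threshold on expression but with earlier results of these data known. The choice covers innexins of the gonad, the nervous system, muscle, the pharynx and the embryo. They are unc-7, unc-9, eat-5, inx-3, inx-6, inx-8, inx-9, inx-14, inx-21 and inx-22, and they are 10 of the 28749 genes in the deposited table and 10 of its 25 innexin genes.

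Polyadenylated RNA of whole animals was sequenced in 9 libraries, 3 for each of 3 strains. N2 is the Bristol wild type and carries no transgene. The strain WLZ1 carries the transgene wlzIs1, in which the promoter of the synaptic vesicle gene snb-1 drives wild-type human LRRK2, a kinase linked to Parkinson's disease, together with a lin15(+) marker. The strain WLZ3 carries wlzIs3, built from the same promoter and marker, with the G2019S form of LRRK2. Each transgene is represented by 1 strain and no strain carries the marker alone, so LRRK2, the marker, the insertion and the strain background cannot be told apart. Growth was at 20 °C with E. coli OP50 as food. The sources used here do not give the stage, age or sex of the animals or which instrument read which library. No label states whether the 3 libraries of a strain are from separate cultures, and p-values therefore measure only the spread among these samples, which may be technical.

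The 10 genes lie on 3 chromosomes of the build WBcel235. On the X chromosome are unc-7 (15120846 to 15147740, minus strand), unc-9 (13201770 to 13216729, plus strand) and inx-3 (5996156 to 5998243, plus strand). On chromosome IV are inx-6 (12746584 to 12749721), inx-8 (11673843 to 11675635) and inx-9 (11676354 to 11678497), all on the plus strand. On chromosome I are eat-5 (7308643 to 7311915, minus strand), inx-14 (7350309 to 7352235, minus strand), inx-22 (3608518 to 3611844, plus strand) and inx-21 (3611942 to 3618317, plus strand). There are 2 close pairs of neighbours, each on 1 strand: inx-9 begins 718 bases after inx-8, and inx-21 begins 97 bases after inx-22. The longest annotated proteins run from 382 residues, in both INX-8 and INX-9, to 546 residues in UNC-7.

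Levels were given by the authors as FPKM, reads scaled by gene length and by library total, so that genes of different length can be set side by side. Library totals recovered from these values ran from 38128733 to 53336538 reads, and 20181 to 21451 genes per library were above 0. A gene was tested if it reached 1 FPKM in at least 3 libraries, which 14862 genes did, and all 10 innexins were among them. Of the 10, 8 reached 1 FPKM in all 9 libraries, unc-7 did so in 7 and eat-5 in 6, including all 3 of N2 in both cases. Changes are differences of log2(FPKM + 1) from limma with Benjamini-Hochberg adjustment over all genes tested, with calls made at an adjusted p under 0.05. This scale understates the change of low genes. Folds are ratios of mean FPKM.

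The libraries differed widely between groups. The median change of all genes was -0.13 in WLZ1 against N2, -0.02 in WLZ3 against N2 and 0.10 in WLZ3 against WLZ1. Under median-of-ratios scaling the first of these medians was 0.04, and under quantile normalization it was 0.07. Of the genes called in WLZ1 against N2, 39.3% were higher, against 54% under median-of-ratios scaling and 56.5% under quantile normalization. In WLZ3 against N2 the share higher was 36.9%, against 50.0% and 51.3%, and in WLZ3 against WLZ1 it was 70.2%, against 45.7% and 47.9%. Replicate 1 of N2 was the lowest N2 library for 7 of the 10 innexins and for 22 of all 25. Replicate 1 of WLZ3 stood apart in 8 sperm genes, with a summed level of 169.6 FPKM against 25 and 57.4 in the other WLZ3 libraries. Without replicate 1 of N2, 7, 6 and 5 of the 10 innexins were called in WLZ1 against N2, WLZ3 against N2 and WLZ3 against WLZ1. Without replicate 1 of WLZ3 the numbers were 6, 6 and 5.

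In wild-type animals the mean levels of the 10 genes ran from 2.10 to 129 FPKM. The embryonic and pharyngeal innexin inx-3 was the most abundant at 129 FPKM ± 16.5 (SD, n = 3), and the sheath innexin inx-8 followed at 122 ± 13.9, with overlapping libraries. The germ line innexins inx-14, at 80.5 ± 2.73, and inx-22, at 54.6 ± 2.2, came next, each separate from its neighbours. Then came inx-9 of the sheath at 26.0 ± 3.42, inx-21 of the germ line at 22.7 ± 2.31 and inx-6 of the pharynx at 20.8 ± 4.65, and neighbours in this run overlapped. The electrical synapse genes unc-9, at 11.9 ± 1.85, and unc-7, at 6.09 ± 1.44, and the pharyngeal gene eat-5, at 2.10 ± 0.00542, closed the order without overlap.

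**Figure D1:**
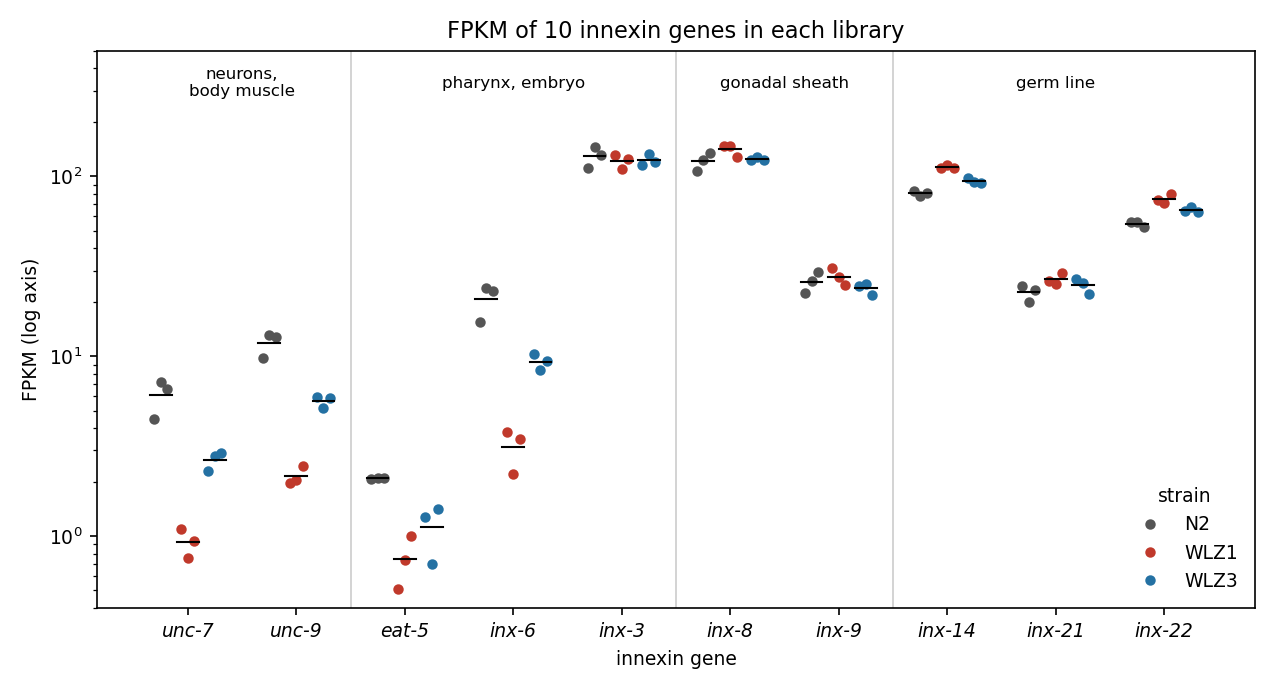
FPKM of the 10 innexins in each library, on a log axis, with 3 points per strain (N2 grey, WLZ1 red, WLZ3 blue) and a bar at the mean. The points of unc-7, unc-9, eat-5 and inx-6 in WLZ1 sit below all of their N2 points, and those of inx-14, inx-21 and inx-22 sit above them.

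In WLZ1 against N2, innexins were called in both directions. The neuronal, muscle and pharyngeal genes unc-7, unc-9, inx-6 and eat-5 fell, by 6.52-fold, 5.49-fold, 6.60-fold and 2.80-fold. The germ line genes inx-14 and inx-22 rose 1.40-fold and 1.37-fold, and inx-8 of the sheath rose 1.16-fold with overlapping libraries, while inx-3, inx-9 and inx-21 were not called. In all 7 of the 10 were called, 4 lower and 3 higher, beside 67.6% of all genes tested, 41.1% lower and 26.6% higher, so the number of members called was close to the background. The median change of the 10 was 0.01, beside -0.13 over all genes. In bulk RNA of whole animals, fewer cells of a type and less RNA per cell cannot be told apart.

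The pair unc-7 and unc-9 makes the electrical synapses of the locomotor circuit, and unc-9 also couples body wall muscle cells. The level of unc-7 was 4.47, 7.22 and 6.58 FPKM in N2, against 1.10, 0.758 and 0.943 in WLZ1 and 2.29, 2.78 and 2.90 in WLZ3. The groups did not overlap, with N2 highest and WLZ1 lowest. The log2 change of unc-7 was -1.86 (95% interval -2.22 to -1.49, adjusted p = 1.72e-05) in WLZ1 and -0.94 (-1.30 to -0.57, adjusted p = 0.00391) in WLZ3, both against N2. Between the strains, unc-7 was 2.84-fold higher in WLZ3, a log2 difference of 0.92 (0.55 to 1.29, adjusted p = 0.00248).

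The level of unc-9 was 9.77, 13.1 and 12.8 FPKM in N2, against 1.98, 2.05 and 2.47 in WLZ1 and 5.96, 5.16 and 5.86 in WLZ3. Again the groups lay in the order N2, WLZ3, WLZ1 without overlap. On the log2 scale unc-9 changed by -2.02 (-2.30 to -1.74, adjusted p = 3.42e-06) in WLZ1 and -0.94 (-1.22 to -0.67, adjusted p = 0.00146) in WLZ3. In WLZ3 it stood 2.61-fold above WLZ1, with a log2 difference of 1.07 (0.80 to 1.35, adjusted p = 0.000306). The level ratio of unc-9 to unc-7 was 1.98 ± 0.188 in N2, against 2.37 ± 0.50 in WLZ1 and 2.16 ± 0.390 in WLZ3 (SD, n = 3 each), and the ratios of all 3 groups overlapped.

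In the pharynx, the feeding pump of the worm, inx-6 and eat-5 couple muscle cells so that they contract together. The level of inx-6 was 15.5, 23.9 and 23.0 FPKM in N2, against 3.77, 2.23 and 3.46 in WLZ1 and 10.3, 8.35 and 9.47 in WLZ3, in the same order of groups and without overlap. Its log2 change, the largest of the 10 in WLZ1, was -2.39 (-2.82 to -1.96, adjusted p = 1.07e-05), and in WLZ3 it was -1.05 (-1.48 to -0.63, adjusted p = 0.00446). Only 1.23% of the genes tested lay lower in WLZ1 against N2. Between the strains inx-6 was 2.97-fold higher in WLZ3, a log2 difference of 1.33 (0.91 to 1.76, adjusted p = 0.000856).

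The level of eat-5 was 2.09, 2.10 and 2.10 FPKM in N2, against 0.507, 0.737 and 1.00 in WLZ1 and 1.27, 0.704 and 1.41 in WLZ3. These values rest on few reads, from 121 to 157 per library in N2, 41 to 81 in WLZ1 and 48 to 109 in WLZ3. Both strains lay below N2 and overlapped with each other. Against N2, the log2 change of eat-5 was -0.84 (-1.20 to -0.47, adjusted p = 0.00149) in WLZ1 and -0.56 (-0.92 to -0.19, adjusted p = 0.0259) in WLZ3. The WLZ3 call was lost without WLZ3 replicate 2 (adjusted p = 0.0721), without N2 replicate 2 or 3 (0.0720 and 0.0707), under quantile normalization (0.0911) and with a pseudocount of 0.1 (0.0503). The strains differed by 0.28 (-0.09 to 0.64, adjusted p = 0.193), which did not pass the test, and without WLZ3 replicate 2 the adjusted p was 0.0494.

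The remaining innexin with a known role in the pharynx and embryo, inx-3, is expressed broadly, including in early embryos. Its level was 112, 145 and 131 FPKM in N2, against 132, 109.6 and 125 in WLZ1 and 116, 133 and 121 in WLZ3. All groups overlapped. Against N2, inx-3 had a log2 difference of -0.08 (-0.31 to 0.15, adjusted p = 0.497) in WLZ1 and -0.06 (-0.29 to 0.16, adjusted p = 0.633) in WLZ3. Its sign in WLZ1 turned under median-of-ratios scaling, to 0.11, but not under quantile normalization, where the difference was -0.13.

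**Figure D2:**
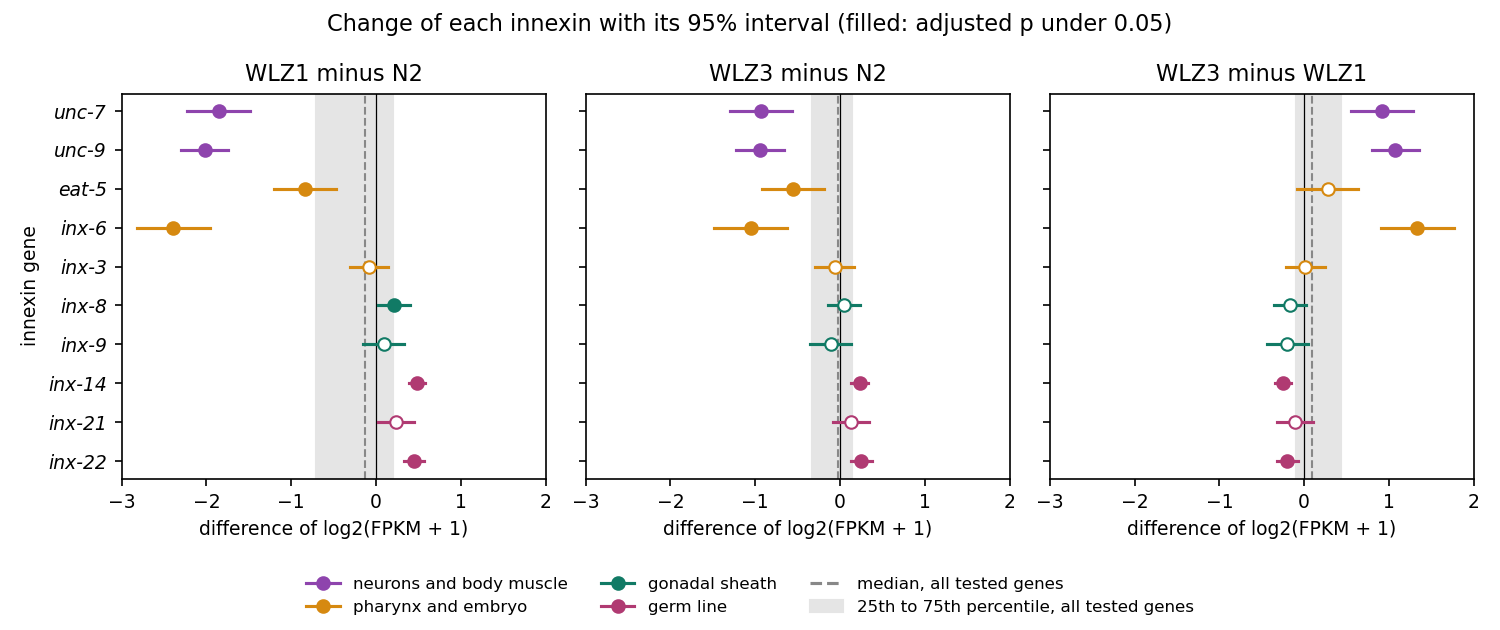
Difference of log2(FPKM + 1) of each innexin with its 95% interval from limma, in 1 panel for each of the 3 comparisons, coloured by tissue class and filled where the adjusted p was under 0.05. The dashed line and grey band give the median and the 25th to 75th percentile of all genes tested. Against N2, the intervals of unc-7, unc-9, eat-5 and inx-6 lie below 0 in both strains, those of inx-14 and inx-22 above 0, and that of inx-3 crosses 0.

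The gonad members fall on either side of 1 junction. INX-14, INX-21 and INX-22 form the hemichannels of germ cells and oocytes, and INX-8 and INX-9 form those of the somatic sheath. Channels with INX-21 are needed for germ cells to proliferate, and channels with INX-22 hold back oocyte maturation until sperm are present, while INX-14 takes part in both.

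The level of inx-14 was 82.9, 77.5 and 81.1 FPKM in N2, against 111, 116 and 112 in WLZ1 and 97.9, 93.5 and 92.3 in WLZ3. The groups did not overlap and their order was the reverse of that for the neuronal genes, with WLZ1 highest. The log2 change of inx-14 was 0.48 (0.39 to 0.58, adjusted p = 1.70e-05) in WLZ1 and 0.23 (0.14 to 0.32, adjusted p = 0.00471) in WLZ3, and WLZ3 differed from WLZ1 by -0.25 (-0.35 to -0.16, adjusted p = 0.00187). Relative to the median of all genes, its change in WLZ1 was 0.61 in the deposited values, 0.63 under median-of-ratios scaling and 0.34 under quantile normalization.

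The level of inx-22 was 56.1, 55.6 and 52.1 FPKM in N2, against 73.7, 71.5 and 79.6 in WLZ1 and 64.6, 67.6 and 63.4 in WLZ3, again with WLZ1 highest, WLZ3 between and no overlap. On the log2 scale inx-22 changed by 0.45 (0.33 to 0.57, adjusted p = 8.76e-05) in WLZ1 and 0.25 (0.13 to 0.37, adjusted p = 0.00791) in WLZ3. WLZ3 differed from WLZ1 by -0.20 (-0.32 to -0.08, adjusted p = 0.0163), a call that was lost without WLZ3 replicate 3 (adjusted p = 0.0607). The ratio of inx-22 to inx-14 was 0.679 ± 0.0375 in N2, against 0.665 ± 0.0473 in WLZ1 and 0.690 ± 0.0319 in WLZ3 (SD, n = 3 each), and the groups overlapped.

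The third germ line gene, inx-21, had levels of 24.5, 20.1 and 23.4 FPKM in N2, against 26.3, 25.1 and 29.2 in WLZ1 and 26.9, 25.7 and 22.3 in WLZ3. WLZ1 lay above N2 without overlap and WLZ3 overlapped with both. Its log2 change was 0.24 (0.02 to 0.45, adjusted p = 0.0503) in WLZ1 and 0.13 (-0.08 to 0.35, adjusted p = 0.296) in WLZ3, so neither was called. The WLZ1 change passed the test under both other scalings, with an adjusted p of 0.00276 under median-of-ratios scaling and 0.0101 under quantile normalization. It stayed uncalled in 11 of 18 alternatives, among them without N2 replicate 2 (adjusted p = 0.174) and without WLZ1 replicate 3 (0.161). WLZ3 differed from WLZ1 by -0.11 (-0.32 to 0.11, adjusted p = 0.398).

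On the sheath side, inx-8 had levels of 108, 123 and 136 FPKM in N2, against 149, 147 and 129 in WLZ1 and 123, 129 and 124 in WLZ3. The libraries of WLZ1 and N2 overlapped. The log2 change of inx-8 was 0.21 (0.02 to 0.40, adjusted p = 0.0467) in WLZ1, a narrow call that was lost under quantile normalization (adjusted p = 0.156) and without N2 replicate 1 (0.147), among 11 of 18 alternatives. In WLZ3 it was 0.04 (-0.15 to 0.23, adjusted p = 0.703).

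The neighbour of inx-8, inx-9, had levels of 22.6, 26.1 and 29.4 FPKM in N2, against 30.9, 27.5 and 24.8 in WLZ1 and 24.6, 25.3 and 22 in WLZ3. All groups overlapped. Against N2, inx-9 had a log2 difference of 0.09 (-0.15 to 0.33, adjusted p = 0.471) in WLZ1 and -0.11 (-0.35 to 0.13, adjusted p = 0.442) in WLZ3, and the first was called under median-of-ratios scaling (0.28, adjusted p = 0.0329). Of the summed level of the pair, inx-8 held 82.4% ± 0.260 in N2, against 83.6% ± 0.745 in WLZ1 and 84.0% ± 0.850 in WLZ3 (SD, n = 3 each). Both strains lay above N2 without overlap, and an exact permutation test of 3 against 3 libraries cannot go below p = 0.1. How reads that match both genes of this related pair were counted is not stated.

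Protein-coding genes on the other strand overlap 3 of the members, and since the use of strand in counting is not given, reads of the shared stretches cannot be assigned. The exons of inx-14 share 4.95% of their length with kbrl-1 on the other strand, and those of inx-9 share 4.77% with ZK792.4. The overlap of inx-3 with F22F4.9 covers 0.245%. The level of kbrl-1 was 43.8 FPKM in N2, against 50.3 in WLZ1 and 48.7 in WLZ3, and that of ZK792.4 was 2.90, 0.639 and 1.53.

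In WLZ3 against N2, the animals with the G2019S form, 6 of the 10 innexins were called, beside 36.0% of all genes tested. The 4 lower were unc-9, inx-6, unc-7 and eat-5, by 2.10-fold, 2.22-fold, 2.29-fold and 1.86-fold, beside a background of 22.7% lower. The 2 higher were inx-14 and inx-22, by 1.17-fold and 1.19-fold, beside a background of 13.3% higher. That background fell when N2 replicate 2 or 3 or any WLZ3 library was left out. Without N2 replicate 2 it was 20.8% of the genes tested, 13.7% lower and 7.10% higher. Without N2 replicate 3 it was 22.1%, 14.4% lower and 7.70% higher, and 5 of the 10 innexins were called in either case. Leaving out WLZ3 replicate 1, 2 or 3 gave 25.3%, 25.5% and 28.7%, with 6, 5 and 6 of the 10 innexins called. Without N2 replicate 1 it was 37.5%. The median change of the 10 was -0.09, beside -0.02 over all genes. This comparison and that of WLZ1 share the same N2 libraries, so the like order of the members in both is not independent.

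WLZ3 and WLZ1 were compared directly, without N2. Of the 10 innexins 5 were called, beside 42.1% of all genes tested. The genes unc-7, unc-9 and inx-6 were higher in WLZ3, beside 29.6% of all genes, and inx-14 and inx-22 were lower, beside 12.6%. Each of these 5 lay between N2 and WLZ1 in all 3 WLZ3 libraries. The share of all genes with such an order was not counted, and the comparisons share libraries. For eat-5, inx-3, inx-8, inx-9 and inx-21 the difference between the strains did not pass the test, and the widest of their intervals, that of eat-5, ran from -0.09 to 0.64. It was 0.02 (-0.21 to 0.24) for inx-3, -0.17 (-0.36 to 0.02) for inx-8 and -0.20 (-0.44 to 0.04) for inx-9. Under median-of-ratios scaling both sheath genes were called lower in WLZ3, inx-8 by -0.31 (adjusted p = 0.0149) and inx-9 by -0.33 (adjusted p = 0.0228).

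Libraries of the groups did not overlap for 7 of the 10 in WLZ1 against N2, beside 70.8% of all genes, with 4 lower (42.5% of all genes) and 3 higher (28.3%). In WLZ3 against N2 there were 4 such genes lower and 2 higher, beside 51.9% of all genes in either direction, 29.7% lower and 22.2% higher. In WLZ3 against WLZ1 there were 2 lower and 3 higher, beside 55.7% in either direction, 18.5% lower and 37.1% higher. By this measure, too, the number of members that separated was near the background.

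Summed over the 10 genes, the level was 476 FPKM ± 33.2 in N2, against 513 ± 14.5 in WLZ1 and 476 ± 13.3 in WLZ3 (SD, n = 3 each). The makeup of that sum differed more than its size. The neuronal and muscle pair unc-7 and unc-9 held 3.76% ± 0.453 of it in N2, against 0.605% ± 0.0610 in WLZ1 and 1.75% ± 0.132 in WLZ3, with no overlap between groups. The 5 gonad genes held 64.3% ± 2.97 in N2, against 74.9% ± 1.88 in WLZ1 and 70.2% ± 0.934 in WLZ3, again without overlap. The germ line genes accounted for most of that difference, with 33.3% ± 3.51, 41.9% ± 1.86 and 38.8% ± 1.06, and WLZ3 overlapped with WLZ1. The shares of the sheath pair, at 31% ± 1.86, 33% ± 2.39 and 31.4% ± 0.129, overlapped between all groups.

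**Figure D3:**
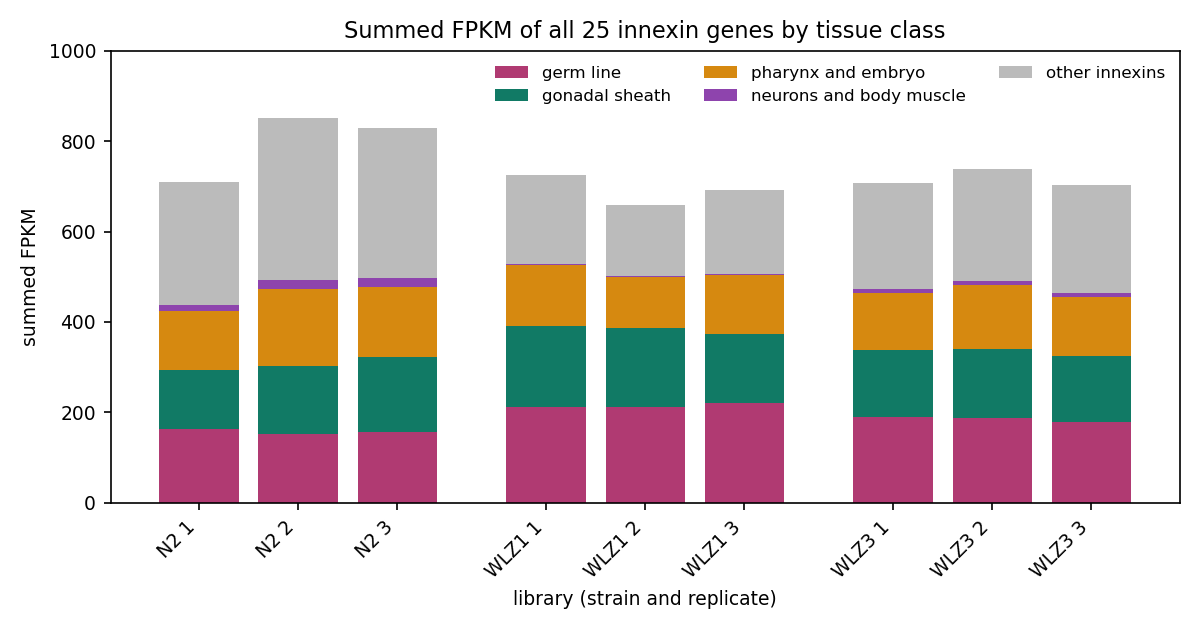
Summed FPKM of all 25 innexins in each library, stacked by tissue class of the 10 genes described here with the other 15 on top in grey. The share of the 10 members in the total is lowest in N2, at 58.0% to 61.7%, and highest in WLZ1, at 73.1% to 76.2%.

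The other 15 innexins of the table were all tested, and against N2 none was called higher in either strain, except that 1 was higher in WLZ1 under quantile normalization. In WLZ1 against N2, 13 were lower, beside 41.1% of all genes tested, and inx-7 and inx-11 were not called. The median change was -0.90, beside -0.13 over all genes. In WLZ3 against N2, 10 were lower and none higher, beside 22.7% of all genes lower. The median was -0.42, beside -0.02 over all genes. In WLZ3 against WLZ1, 12 were higher and none lower, against 9 higher and 1 lower under quantile normalization. In the deposited values 29.6% of all genes were higher in that comparison, and the median of the 15 was 0.50, beside 0.10. The 10 genes described here made up 59.9% ± 1.84 of the summed innexin level in N2, against 74.2% ± 1.73 in WLZ1 and 66.5% ± 0.398 in WLZ3 (SD, n = 3 each), without overlap.

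Of these other innexins, inx-1 had the largest change on the log2(FPKM + 1) scale, from 19.4 FPKM ± 3.93 in N2 to 3.77 ± 0.511 in WLZ1 and 10.7 ± 0.486 in WLZ3 (SD, n = 3 each). Its log2 changes against N2 were -2.08 (adjusted p = 6.08e-06) and -0.78 (adjusted p = 0.00482). The gene inx-19, which couples a left and right pair of olfactory neurons in the embryo, fell from a mean of 3.73 FPKM to 0.887 in WLZ1 and 2.04 in WLZ3. In WLZ1 the log2 change was -1.33 for inx-18, -1.30 for inx-19, -1.25 for inx-5 and -1.16 for che-7. The mean of inx-18 fell from 2.79 FPKM to 0.498 in WLZ1 and 1.31 in WLZ3. In WLZ1 this was a larger fold of the means (5.60) than that of inx-1 (5.14). The mean of che-7 fell from 2.41 to 0.529 and 1.17. For inx-5 the means were 18.3, 7.11 and 11.8 FPKM, and for the intestinal innexin inx-15 they were 23.5, 10.4 and 19.1, and both passed the test in both strains.

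**Figure D4:**
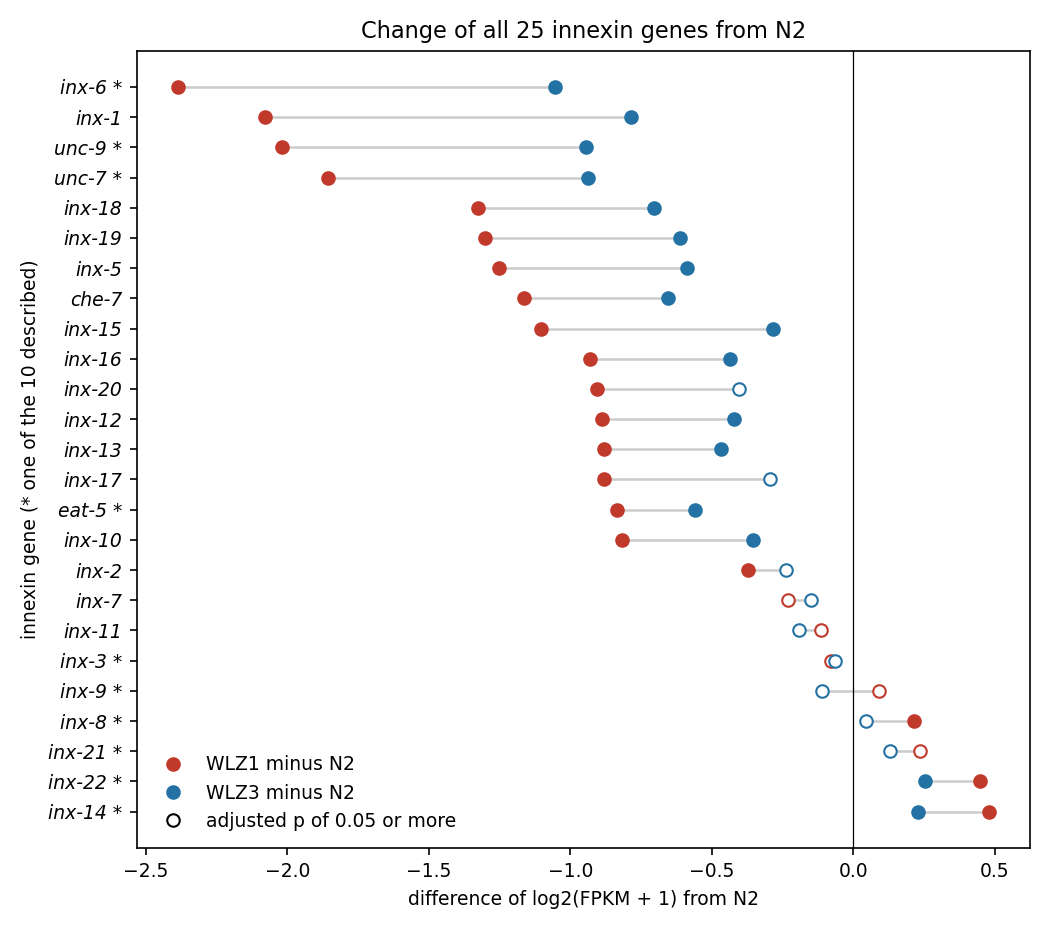
Difference of log2(FPKM + 1) from N2 for all 25 innexins, 1 gene per line, ordered by the change in WLZ1 (red) and joined to the change in WLZ3 (blue), with open circles where the gene was not called and asterisks on the 10 genes described here. The 10 genes lie at both ends, inx-6 at -2.39 and inx-14 at 0.48 in WLZ1, and none of the other 15 lies above 0 in the deposited values, against 1 called higher in WLZ1 under quantile normalization.

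A list of 10 genes of electrical synapses and cell junctions was followed alongside. It held unc-1, unc-24, sto-6, unc-44, unc-33, vab-8, nlr-1 and zoo-1, together with ajm-1 and dlg-1, which are known for the apical junctions of epithelia. All 10 were lower in WLZ1 against N2, beside 41.1% of all genes tested, with a median of -1.21. In WLZ3 against N2, 9 were lower, beside 22.7% of all genes, with a median of -0.58. The stomatin gene unc-1, whose product is needed for UNC-9 channels to work, fell from 25.4 FPKM ± 3.65 in N2 to 4.49 ± 0.348 in WLZ1 and 12.6 ± 1.02 in WLZ3 (SD, n = 3 each). Its log2 changes were -2.26 (adjusted p = 1.59e-06) and -0.95 (adjusted p = 0.000964), close in size to those of unc-9. The stomatin-like gene unc-24 fell from 5.71 to 1.13 and 3.33 FPKM, with log2 changes of -1.64 (adjusted p = 5.40e-05) and -0.62 (adjusted p = 0.0259).

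Genes of oocyte maturation signalling, in which the sheath and its junctions with oocytes take part, were followed as a list of 11. They did not move as a group: in WLZ1 against N2, 4 were higher and 6 lower, with a median of -0.13. Of all genes tested, 26.6% were higher and 41.1% lower in that comparison. The 4 higher were the oocyte genes oma-1, oma-2 and lin-41 and the kinase gene mpk-1, named here because they are the whole of that count and chosen after their values were seen. The largest falls were those of ceh-18, a homeobox gene of the sheath, from 7.44 FPKM in N2 to 2.36 in WLZ1 and 4.6 in WLZ3, and gsa-1, the stimulatory G protein alpha subunit that acts in the sheath, from 14.8 to 5.54 and 8.35. Their log2 changes in WLZ1 were -1.32 (adjusted p = 7.89e-06) and -1.27 (adjusted p = 3.00e-06). In WLZ3, 3 of the 11 were higher and 5 lower, beside 13.3% and 22.7% of all genes, with a median of -0.14.

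Markers of neurons and muscle were lower in both strains. Of all genes tested, 41.1% were lower in WLZ1 and 22.7% in WLZ3, both against N2. Of 10 neuronal markers all 10 were lower in WLZ1 and in WLZ3 against N2, and their summed level was 139 to 187 FPKM in N2, 52.5 to 59.7 in WLZ1 and 90.9 to 103 in WLZ3. Of 7 body wall muscle markers, 7 were lower in WLZ1 and 5 in WLZ3, with sums of 605 to 703, 272 to 307 and 450.3 to 578 FPKM. Of 8 pharyngeal muscle markers, 8 were lower in WLZ1 and 7 in WLZ3, with sums of 319 to 445, 101 to 126 and 195 to 228 FPKM. The median changes of the 3 lists in WLZ1 were -1.53, -1.17 and -1.97. Beside them stood -1.86 for unc-7, -2.02 for unc-9, -2.39 for inx-6, -0.84 for eat-5 and, not called, -0.08 for inx-3. Changes of the pharyngeal markers in WLZ1 ran from -2.62 to -0.94, so eat-5 fell less than each of them on this scale, which understates low genes. By the means eat-5 fell 2.80-fold, more than pha-4 (29.6 to 14.7 FPKM) and tni-4 (164 to 62.3 FPKM). The folds of the other pharyngeal markers were larger than that of eat-5. No gene of these lists was at 0 in all libraries of a group, and the part of these tissues in the changes of the innexins was not tested.

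In the gonad, all 10 germ line markers were higher in WLZ1 and 5 were higher in WLZ3, with sums of 1371 to 1523 FPKM in N2, 1851 to 1955 in WLZ1 and 1650 to 1708 in WLZ3. Their median changes of 0.35 and 0.22 stood beside 0.48 and 0.23 for inx-14 and 0.45 and 0.25 for inx-22. For inx-21 the changes were 0.24 and 0.13, neither called, and the first was below the lowest marker in WLZ1, at 0.28. Of 8 sperm genes 7 were tested. All 7 were higher in WLZ1, with a median of 3.24, and 4 were higher in WLZ3. Among them spe-11, gsp-3 and gsp-4 were below 1 FPKM in every N2 library and passed the filter only through WLZ1. For these genes a higher call in WLZ1 was in part fixed by the filter. Summed levels of the 8 were 5.44 to 19.7 FPKM in N2, 215 to 269 in WLZ1 and 25 to 169.6 in WLZ3. Of the 6 markers found for the gonadal sheath and spermatheca, 4 were lower in WLZ1 and 3 in WLZ3, with a median of -0.81 and -0.27 and sums of 77.6 to 86.8, 61.0 to 61.1 and 71.1 to 73.9 FPKM. The 4 lower in WLZ1 were lim-7, ceh-18, spv-1 and fkh-6, named after their values were seen, while fln-1 and sth-1 were not called in either strain, and several of the 6 are known for the spermatheca rather than the sheath. Neither sheath innexin, inx-8 or inx-9, was called lower. Of 6 tested genes listed as embryo markers 4 were higher in WLZ1 and none in WLZ3. The list was mixed: in N2 pie-1 and skn-1 stood at 67.4 and 98.4 FPKM, against 1.78 and 1.26 for end-1 and end-3. From which tissue these RNAs came was not tested, and tbx-37 passed the filter only through WLZ1. Of 8 intestinal markers 1 was higher and 3 lower in WLZ1, and 1 was lower in WLZ3. Of 8 epidermal markers 5 were lower in WLZ1, and 1 was higher and 4 lower in WLZ3, with sums of 425 to 457 FPKM in N2, 248 to 276 in WLZ1 and 391 to 699.6 in WLZ3. Beside these counts, 26.6% of all genes tested were higher and 41.1% lower in WLZ1 against N2. In WLZ3 against N2 the shares were 13.3% and 22.7%, and the intestinal counts did not exceed this background in either strain. Again no gene of these lists was at 0 in a whole group, and their part in the levels of the innexins was not tested.

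**Figure D5:**
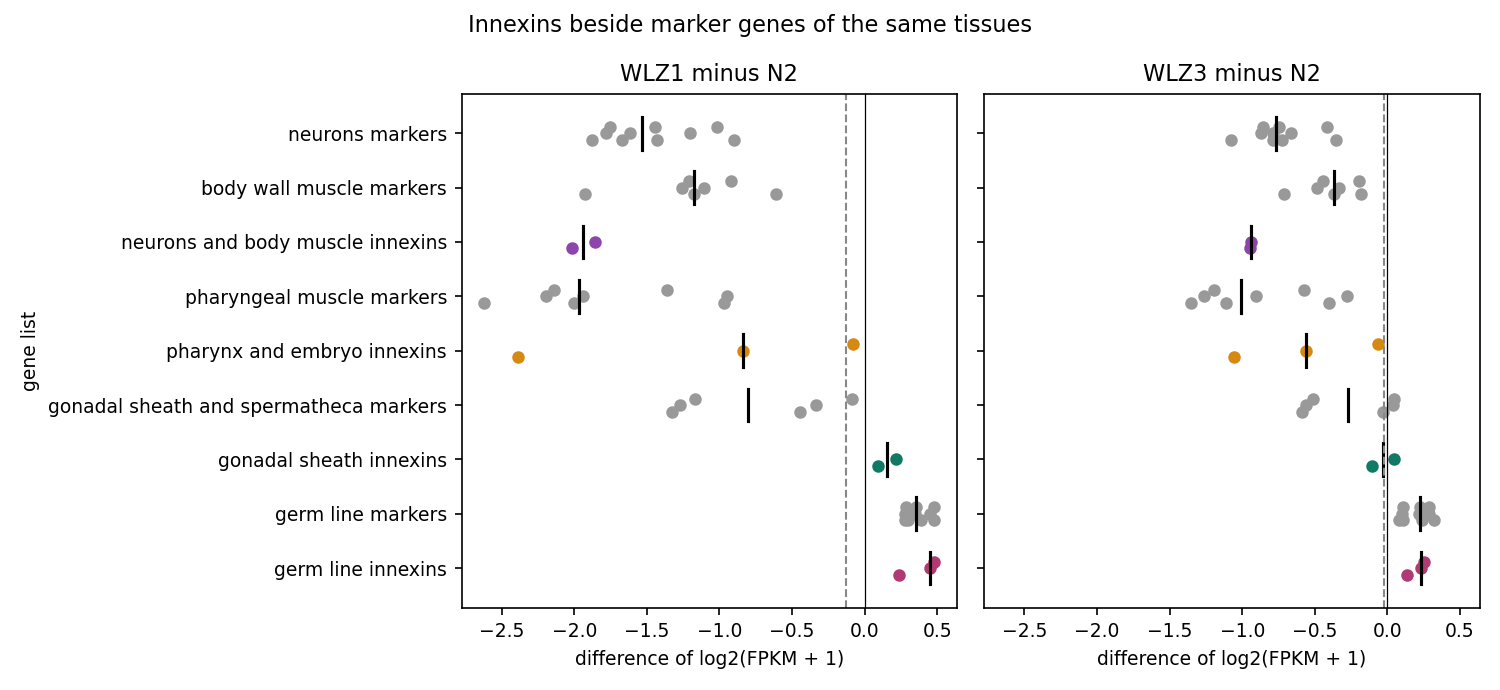
Difference of log2(FPKM + 1) from N2 in WLZ1 and WLZ3, with 1 point per gene: innexins of a tissue class in colour, marker genes of the tissues in grey, a bar at each list's median and a dashed line at the median of all genes. Germ line innexins and markers lie above 0, neuronal, body muscle and pharyngeal markers lie below 0, and the sheath innexins lie above the sheath markers' median of -0.81 in WLZ1 and -0.27 in WLZ3.

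Among 9505 other genes that averaged 5 FPKM or more, the gene whose levels most resembled each innexin over the 9 libraries was found from the root mean square difference of log2(FPKM + 1), centred on N2. The closest match of all was oops-1 to inx-14, with a difference of 0.0230 and means of 85.5 FPKM in N2, against 118 in WLZ1 and 99.6 in WLZ3. For inx-22 it was T05B9.1 at 0.0309, for inx-3 swan-2 at 0.0420, for inx-8 nhr-256 at 0.0468 and for inx-21 dph-7 at 0.0527. The matches of the genes that fell were looser than these. They were pqn-35 at 0.0674 for unc-9, let-805 at 0.0942 for unc-7, bus-19 at 0.101 for inx-6 and B0457.2 at 0.111 for eat-5. Both unc-7 and eat-5 themselves averaged below 5 FPKM. For inx-9, which was not called, the match was Y116A8C.9 at 0.0841, looser than that of unc-9.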

How the data were processed

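Poly(A) RNA of whole worms was sequenced in 9 libraries, 3 per strain. The authors deposited 1 table of FPKM values for 28749 genes; fastp 0.23.2, featureCounts 2.0.3 and HISAT2 2.2.1, with the build WBcel235, are named in the submitters' processing notes. How FPKM was calculated and the strand setting are not stated there. Gene names came from the RefSeq table (28744 matched, 5 not), positions from Ensembl release 115. FPKM times exon length gave whole reads (within 0.05) throughout for 22190 genes, 85.06% of all genes above 0, which gave the library totals; for unc-7, unc-9, inx-14 and inx-22 another length was needed.

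Values were transformed to log2(FPKM + 1) and genes at 1 FPKM or more in 3 or more libraries were fitted with limma 3.58.1 (R 4.3.3, trend, 1 mean per group, 9 libraries), with two-sided Benjamini-Hochberg adjusted p-values over all genes; the script was tested on simulated data. No count test was the main result, since no counts were given. The members, gene lists and markers were chosen with earlier results of these data known. Named were all 10 members, up to 6 other innexins with the largest change and a mean of 1 FPKM or more, the called genes of each partner list that changed most in WLZ1 (at most 2), and the 1 most alike gene per member. Alternatives were 2 other pseudocounts (0.1, 0.5), no filter, a mean filter of 5 FPKM, 2 scalings, a replicate block, 2 groups per fit, each library left out and, chosen after seeing the data, limma-voom on recovered reads. No sequences were printed. The marker names tnc-1, emo-1 and tni-2 were not matched. Data handling and plots used Python 3.11.15, pandas 2.3.3, numpy 2.4.6 and matplotlib 3.10.9.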

Additional observations from a re-analysis of the deposited data

How the results depend on the processing

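Under 18 alternatives the number of the 10 innexins called stayed between 6 and 9 in WLZ1 against N2, 4 and 6 in WLZ3 against N2 and 4 and 7 in WLZ3 against WLZ1, and unc-7, unc-9, inx-6 and inx-14 kept direction and call wherever they were tested. Of 534 results of single members, 497 kept direction and side of the threshold. The small changes of inx-3, inx-8 and inx-9 turned sign in 9. For inx-3 the log2 change in WLZ1 against N2 was 0.11 and in WLZ3 against WLZ1 -0.12 under median-of-ratios scaling, and for inx-8 in WLZ3 against N2 it was -0.011 under quantile normalization. With 1 library left out, inx-3 ranged from -0.18 to 0.0052 in WLZ1 against N2, -0.16 to 0.021 in WLZ3 against N2 and -0.059 to 0.071 between the strains. Likewise inx-8 ranged from -0.042 to 0.12 in WLZ3 against N2, and inx-9 from -0.0040 to 0.18 in WLZ1 against N2. The cause was not tested. Over all genes 5354 were called in WLZ3 against N2, and 3013 and 3204 without N2 replicate 2 or 3. Without WLZ3 replicate 1, 2 or 3 the numbers were 3718, 3761 and 4234. A filter at a mean of 5 FPKM left 9524 genes tested, without unc-7 and eat-5, and 6469 called in WLZ1 against N2 and 3782 between the strains, beside 10051 and 6259.

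Replicate numbers did not pair the libraries of WLZ1 with those of the other strains. Correlations of same-numbered libraries ran from -0.145 to 0.244, and 4 of 18 were highest with their own number. Those 4 were all between N2 and WLZ3, where the same-numbered correlations were 0.244, 0.0353 and 0.137, so a pairing there was not settled. With the replicate block 6, 6 and 5 of the 10 innexins and 12, 7 and 12 of the other 15 were called in the 3 comparisons, beside 7, 6 and 5 and 13, 10 and 12 without it. Depth limits eat-5 most, with 41 to 157 reads per library.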
